A study of Homo sapiens with 6 samples.

Results

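The genes described here encode 46 factors of translation initiation, elongation, and termination, listed by symbol for their role in translation, with earlier results of these data known. Of these, 45 were found among the 29483 genes of the expression table. *EEF1G*, a subunit of the exchange complex of elongation, was not analysed here. A mean FPKM (fragments mapped to a gene, divided by gene length and library size) of at least 0.5 over the 6 libraries was required for testing and was reached by 44 members. The remaining gene, *EIF4A1*, which encodes the main helicase of the cap-binding complex, was listed at an FPKM of 0.13 to 0.23 on 13 to 20 reads per library, and 47.4% of its exon bases are shared with other genes on the same strand, so that its level is uncertain.

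The cells were HK-2, an established line labelled as human renal proximal tubular epithelium. Both groups were kept in 25 mM HG (high glucose) medium for 7 days. The case group (3 replicates) then received TEPP-46, an activator of the pyruvate kinase isoform PKM2, at 10 μM for 1 day, and the control group (3 replicates) did not, so that every comparison below is of TEPP-46 within HG. The replicates are described as separately treated cells of 1 line, and the p-values measure the spread between these samples.

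The depth behind the values, recovered from the FPKM steps, was 18591414, 17880693, and 17337013 reads on genes for the control libraries (replicates 1 to 3) and 16676066, 16011450, and 15329902 for the case libraries, in the same order. Values are given in the order of the replicate numbers throughout. Case replicate 2 lay nearest to the control group on the first principal component of all tested genes (9.55, against 30.5 and 34.4 for the other case replicates and -27.8 to -22.9 for the control replicates). Of the markers of differentiated proximal tubule, *AQP1*, *GGT1*, *ANPEP*, *LRP2*, *CUBN*, *SLC5A2*, and *SLC34A1* were all below the mean FPKM of 0.5, with a summed FPKM of 0.238 to 0.493 per library. *PAX8*, a transcription factor of the renal epithelial lineage, had an FPKM of 0.065 to 0.194, and *PAX2* had 0 to 0.034. The epithelial keratin genes *KRT8*, *KRT18*, and *KRT19* had FPKM values between 158 and 384, and *EPCAM* between 12.7 and 14.6. The summed FPKM was at most 0.450 for fibroblast markers, 0.0886 for endothelial markers, and 0.119 for the podocyte marker *NPHS1*, and it was 0.231 to 0.915 for leukocyte markers, nearly all of it *CD14*. The defining markers of proximal tubule were therefore nearly absent from these libraries, whereas keratins were abundant.

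Translation begins when initiation factors bring the small ribosomal subunit to the capped end of an mRNA and let it scan to a start codon. Elongation factors then deliver aminoacyl-tRNAs and move the ribosome along, and release factors end the chain at a stop codon. The kinase mTOR controls this machinery in part through the 4E-BP inhibitors of cap binding. It also controls mRNAs that begin with a C followed by a run of pyrimidines at the cap, the 5'TOP mRNAs, most of which encode ribosomal proteins and translation factors. That control acts mainly on translation, which RNA levels do not measure.

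Expression of the translation factors changed in both directions after TEPP-46. Of the 44 tested members, 8 were upregulated (*EIF2B3*, *EIF4EBP1*, *EEF1A1*, *EIF1*, *EEF1B2*, *EIF4A2*, *EIF3K*, and *EIF3M*) and 5 were downregulated (*EIF4EBP2*, *EEF2K*, *EIF4G1*, *EIF3A*, and *EIF3E*) at an adjusted p of at most 0.05 by limma, and 31 did not pass. In all tested genes 13.2% were called, 7.34% upregulated and 5.84% downregulated, against 29.5%, 18.2%, and 11.4% of the members. These shares compare genes of unlike level. The median FPKM was 4.78 for all tested genes, and 168, 55.9, and 29.2 for members upregulated, downregulated, and not called. By voom on the reads recovered from the FPKM steps, the same 13 members were called, but 20.7% of all tested genes. The changes were small. The log2 fold changes, case minus control, ran from -0.51 to 0.65, and 6 members reached an absolute value of 0.5. At an unadjusted p under 0.05 there were 13 higher and 7 lower members, against 33.1% of all tested genes. The median was 0.09, against -0.00 for all tested genes, and it was 0.16, 0.06, and 0.10 above the control mean in case replicates 1, 2, and 3. After scaling, the values of the groups did not overlap in 23 members, 14 higher and 9 lower in the case group, which is 52.3% of the members against 39.9% of all tested genes. In bulk RNA a smaller share of cells with a transcript and less of it per cell cannot be told apart.

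**Figure D1:**
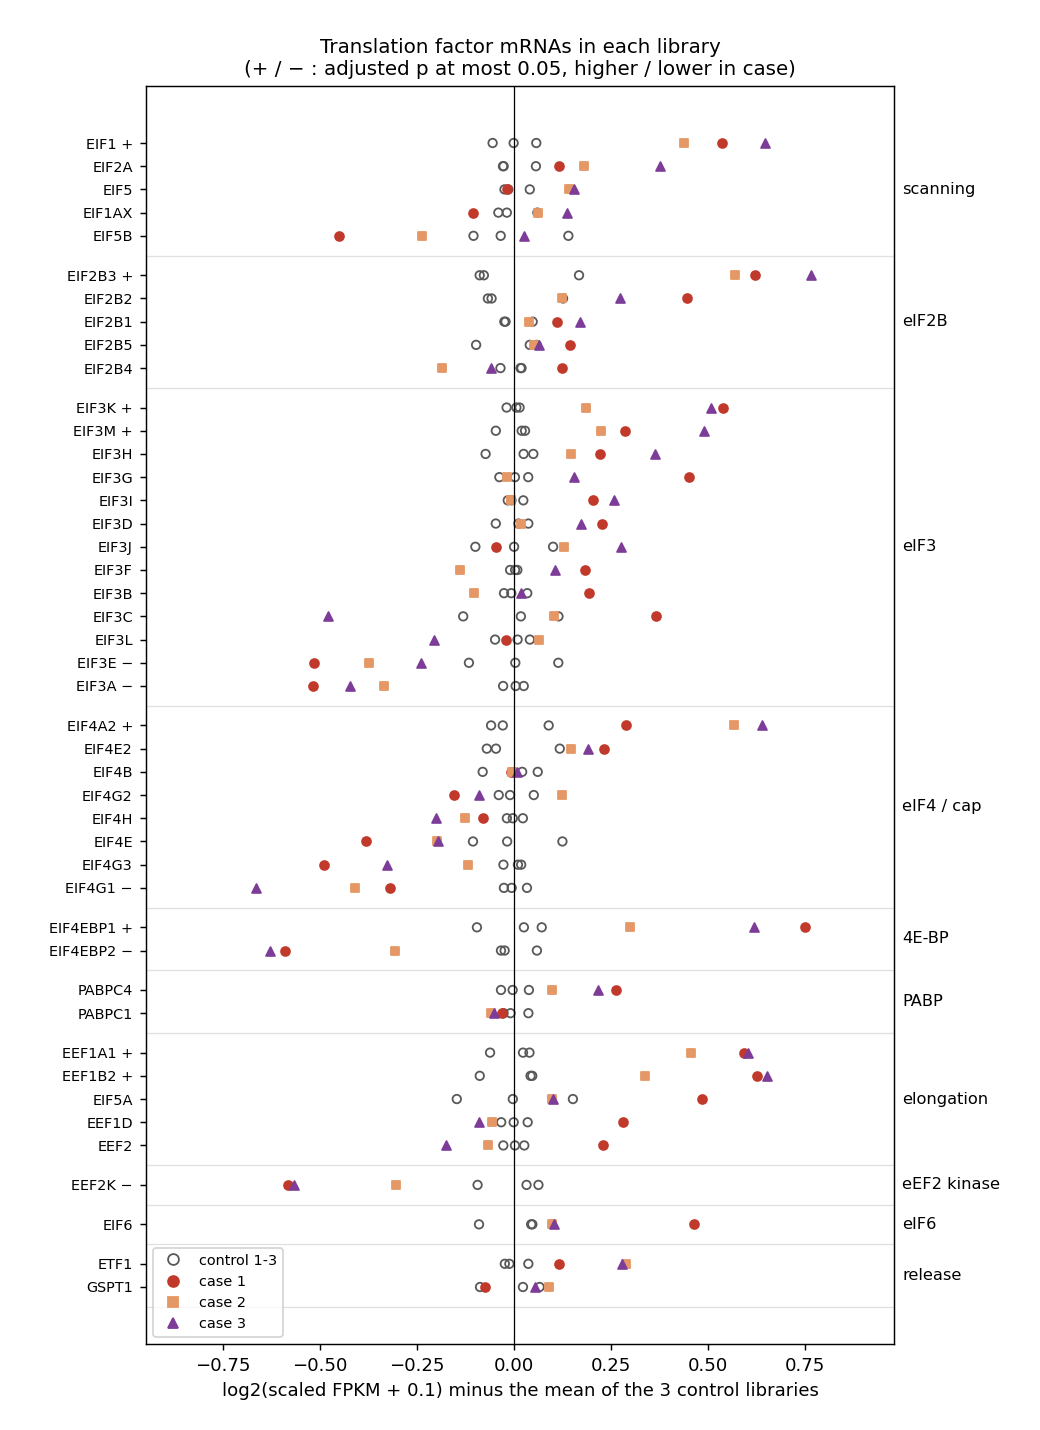
Each row is a tested translation factor and each point a library, on the x axis as log2(scaled FPKM + 0.1) minus the mean of the 3 control libraries. Open circles are control replicates and filled symbols are case replicates, with the members grouped by role and + and - marking those called by limma. The called members sit at a mean of -0.51 to 0.65, and in all 13 of them the 3 case values lie on the same side of every control value.

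The number of called members depended on single libraries. Without control replicate 1 or 2 or case replicate 3, limma called 0 members, with 8, 10, and 9 higher and 5, 5, and 7 lower at an unadjusted p under 0.05. Without control replicate 3 only *EIF2B3* was called (unadjusted, 9 higher and 6 lower). The calls in all tested genes fell together with these, from 1792 to 105, 69, and 192, and to 87 without control replicate 3. Without case replicate 2, 11 members were upregulated and 6 downregulated, among 3495 calls in all genes. Without case replicate 1 there were 8 and 3, among 1221 upregulated and 1075 downregulated genes. The 13 called members had the same sign in each of the 19 alternative settings tried, several of which could hardly change it. The fits without the intensity trend, with robust estimation, and with a replicate block leave the fold changes as they are. Leaving out a library does not readily reverse groups that do not overlap, as in all 13. The balance between the directions also depended on the scaling. With TPM, 383 genes were upregulated and 2387 downregulated (998 and 794 in the scaling used here), the median of all genes moved to -0.19, and 5 members were upregulated and 9 downregulated. With FPKM as deposited there were 662 and 1124 in all genes and 6 and 5 members. With quantile normalization there were 873 and 895 in all genes and 4 and 7 members. The calls of *EIF3K*, *EIF3M*, and *EIF4A2* were lost with both TPM and quantile normalization, and that of *EIF1* with the latter, whereas *PABPC1* and *EIF4H* were called lower with both. With no filter on low values only *EIF2B3*, *EIF1*, and *EIF3A* were called, and without the intensity trend of limma these 3, *EEF1A1*, and *EEF1B2*.

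The members were divided into *EEF1A1*, *EEF2*, *PABPC1*, and the 13 eIF3 subunit genes on the one side, as 5'TOP factors, and the remaining translation factors on the other. In the first group 3 genes were upregulated, 2 were downregulated, and 11 did not pass, with a median log2 fold change of 0.08. Among the 28 other tested members, 5 were upregulated, 3 were downregulated, and 20 did not pass, with a median of 0.09. The medians of these groups thus differed by 0.01, and no test was made because the lists were chosen with results known. Both medians were negative under other scalings, at -0.12 and -0.11 with TPM and -0.01 and -0.03 with quantile normalization. TPM gave 1 upregulated and 3 downregulated genes in the first group and 4 and 6 in the other. Quantile normalization gave 1 and 3 in the first group and 3 and 4 in the other. Not every eIF3 subunit is a classical 5'TOP mRNA. The 9 tested members usually counted as such (*EEF1A1*, *EEF1B2*, *EEF1D*, *EEF2*, *EIF3E*, *EIF3F*, *EIF3H*, *EIF4B*, and *PABPC1*) gave 2 upregulated and 1 downregulated gene and a median of 0.04. With TPM and with quantile normalization 2 were upregulated and 2 downregulated, with medians of -0.15 and -0.01. By comparison, 24 of 77 tested ribosomal protein genes were upregulated and 0 downregulated (0 also at an unadjusted p under 0.05; voom on the recovered reads likewise called 0 lower), with a median of 0.33. TPM gave 14 upregulated and 0 downregulated genes of this list (unadjusted 0 lower) and a median of 0.13, and quantile normalization 8 upregulated, 1 downregulated, and a median of 0.05. After a correction for transcript length, described below, 16 were upregulated and 0 downregulated (1 lower at an unadjusted p under 0.05), and the median was 0.14. Leaving out case replicate 1, 2, or 3 gave 16, 58, and 3 upregulated genes, and leaving out control replicate 1, 2, or 3 gave 2, 0, and 1. Without control replicate 2, where limma called 0, 29 had an unadjusted p under 0.05 and a higher level in the case group. Reads of *EEF1A1* and of ribosomal protein genes may be split with their numerous processed pseudogenes.

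The starts of these transcripts were read from a set of RefSeq promoters (GRCh38.p14), in which a window was found for 37 of the 46 members. No window was found in that set for *EIF3A*, *EIF3E*, *EIF3G*, *EIF3H*, *EIF3L*, *EEF1D*, *EIF4EBP1*, *PABPC1*, and *PABPC4*, which does not mean that RefSeq lacks these genes. The following windows cover 10 bases before to 20 bases after the annotated start, on the strand of the gene. They set genes with a pyrimidine run at or near that start that were called higher, lower, or not at all beside each other. In *EEF2K* all bases of the run lie before that start. Capitals mark a C that lies within 5 bases of the start together with the pyrimidines that follow it, where at least 5 such bases stand in a row.
EEF1A1 (upregulated; chr6:73521013-73521042, minus strand): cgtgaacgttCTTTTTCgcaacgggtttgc
EIF4A2 (upregulated; chr3:186783567-186783596, plus strand): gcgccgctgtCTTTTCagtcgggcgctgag
EIF3K (upregulated; chr19:38619178-38619207, plus strand): tttccaccaCCTCTTCCTgttcccgtcctt
EIF3M (upregulated; chr11:32583821-32583850, plus strand): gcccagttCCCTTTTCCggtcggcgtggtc
EIF4EBP2 (downregulated; chr10:70404135-70404164, plus strand): gccttcgcccgCTTCCggtcgtcgtcgtcg
EEF2K (downregulated; chr16:22206268-22206297, plus strand): gcccgCTTCTgctcaacctagaccagcccc
EEF2 (not called; chr19:3985444-3985473, minus strand): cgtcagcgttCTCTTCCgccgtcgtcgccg
EIF4B (not called; chr12:53006446-53006475, plus strand): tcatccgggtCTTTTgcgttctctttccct
EIF3D (not called; chr22:36529147-36529176, minus strand): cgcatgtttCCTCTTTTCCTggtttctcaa
EEF1B2 (upregulated, no such run; chr2:206159599-206159628, plus strand): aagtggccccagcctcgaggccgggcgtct

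In *EEF1A1*, *EIF4A2*, *EEF2*, and *EIF4B* the run begins at the first base of the transcript. A run of this kind, counted on the strand of the gene, was found in 16 of the 37 members (43.2%), in 50 of 63 ribosomal protein genes (79.4%), and in 19.6% of all 27305 windows of the set. Of the 16 members with a run, 5 were upregulated, 2 downregulated (*EIF4EBP2* and *EEF2K*), and 9 not called, with a median log2 fold change of 0.13. These include *EIF1* (upregulated), *EEF2K* (downregulated), and *EIF3C* (not called), in which the run lies wholly before the annotated start and is not part of the annotated transcript. Of the 19 tested members whose window held no run, 2 were upregulated (*EIF2B3* and *EEF1B2*), 1 was downregulated (*EIF4G1*), and 16 were not called, with a median of 0.09. These medians and counts depended on the scaling. The medians with and without a run were -0.07 and -0.11 with TPM and 0.01 and -0.04 with quantile normalization. With quantile normalization 1 member with a run and 2 without were upregulated, with TPM 2 and 2, and after the length correction 3 and 4, while the downregulated members numbered 2 and 2, 2 and 4, and 0 and 0 (2 and 4 lower at an unadjusted p under 0.05). The letters say only what the annotated start looks like, since the start used in these cells was not measured.

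Elongation factors gave the highest levels of all members. *EEF1A1* (ENSG00000156508, chromosome 6, 73489308 to 73525587 in GRCh38, as for the positions below) encodes the GTPase that brings aminoacyl-tRNA to the ribosome. Its FPKM was 1079, 1072, and 1014 in the controls and 1454, 1414, and 1525 in the cases, so that every case value was well above every control value. The log2 fold change was 0.55 ± 0.08 (SE, limma, adjusted p = 0.0128). It was smaller with TPM (0.35) and quantile normalization (0.27), where it still passed, and did not pass with no filter on low values (0.57, adjusted p = 0.129 by limma). *EEF2* (ENSG00000167658, chromosome 19, 3976056 to 3985463), which encodes the GTPase that moves the ribosome to the next codon, had FPKM values of 1208, 1195, and 1173 in the control group and 1277, 1112, and 1006 in the case group. Here case replicate 1 was above and the other case replicates below all control values, and the log2 fold change was -0.00 ± 0.11 (SE, 95% interval -0.26 to 0.25). With TPM it was -0.20 and with quantile normalization -0.32, which is outside that interval but did not pass (adjusted p = 0.118 and 0.0719 by limma). Both genes begin with a pyrimidine run of the same length in the windows above. Within a library, the ratio of *EEF1A1* to *EEF2* averaged 0.885 ± 0.0182 (SD, n = 3) without TEPP-46 and 1.31 ± 0.191 (SD, n = 3) with it, and the libraries did not overlap. This ratio does not depend on the scaling of a library, and it was chosen after the values had been seen and therefore not tested.

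*EEF1B2* encodes the exchange factor that recharges eEF1A with GTP, and it rose with *EEF1A1*. Its FPKM was 263, 263, and 241 in the control group and 360, 316, and 382 in the case group, a log2 fold change of 0.54 ± 0.10 (SE, limma, adjusted p = 0.0201), which was 0.34 with TPM and 0.31 with quantile normalization, both called. *EEF1D*, another subunit of the exchange complex, had a log2 fold change of 0.04 ± 0.11 (SE), with more than 30% of its exon bases shared with genes on either strand. For *EIF5A*, which helps the ribosome through difficult peptide bonds and is the 4th most abundant member, it was 0.23 ± 0.13 (SE), with groups that overlapped. *EEF2K*, the kinase that inactivates eEF2, was the least abundant tested member and was downregulated. Its FPKM was 3.10, 3.41, and 3.49 in the control group and 2.00, 2.62, and 2.11 in the case group (log2 fold change -0.48 ± 0.12 SE, adjusted p = 0.0381, limma), on 260 reads in the lowest library. The kinase mRNA fell and that of its substrate *EEF2* was not called, a difference that was not tested. *EEF1A2*, the paralog of *EEF1A1* that is known mainly from muscle and neurons and lies outside the 46 members, was abundant in these cells, with FPKM values of 417, 397, and 413 in the control group and 396, 310, and 339 in the case group (log2 fold change -0.16, adjusted p = 0.361 by limma).

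**Figure D2:**
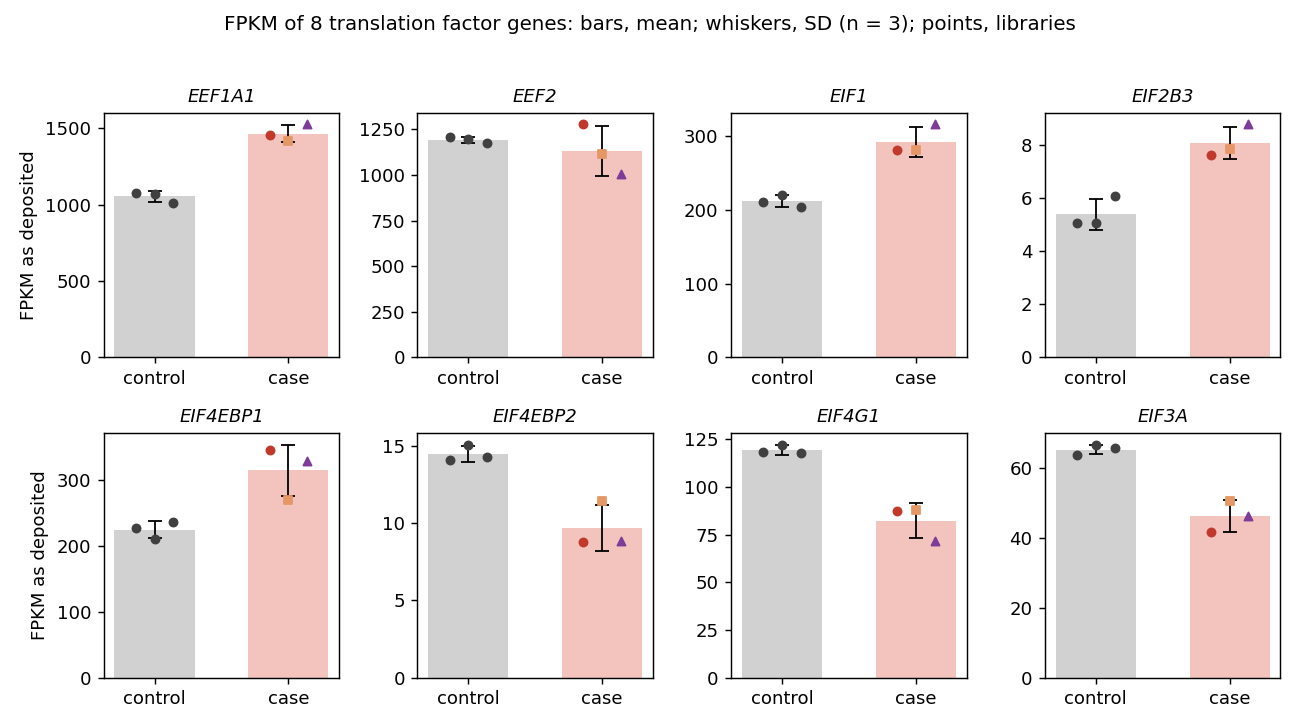
FPKM as deposited (y axis, from 0) of 8 translation factor genes in the control and case groups; bars are means, whiskers are SD (n = 3), and points are libraries. *EEF1A1*, *EIF1*, *EIF2B3*, and *EIF4EBP1* are higher and *EIF4EBP2*, *EIF4G1*, and *EIF3A* lower in every case library than in every control library, and *EEF2* overlaps.

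The inhibitors of cap binding moved in opposite directions. 4E-BP proteins hold the cap-binding protein eIF4E away from its scaffold until mTOR phosphorylates them. *EIF4EBP1* (ENSG00000187840, chromosome 8, 38030534 to 38060365) had FPKM values of 227, 210, and 236 in the control group and 344, 270, and 328 in the case group. Its log2 fold change was 0.56 ± 0.12 (SE, limma, adjusted p = 0.0265), and case replicate 2 was the lowest of the case values. With TPM it was 0.36 and with quantile normalization 0.29, both called. *EIF4EBP2* (ENSG00000148730, chromosome 10, 70404145 to 70428618) had 14.1, 15.1, and 14.3 in the control group and 8.76, 11.4, and 8.88 in the case group, a log2 fold change of -0.51 ± 0.10 (SE, limma, adjusted p = 0.0231). Case replicate 2 was again the nearest to the control values. After the correction for transcript length described below, *EIF4EBP2* had -0.24 and did not pass (adjusted p = 0.0789 by limma). *EIF4EBP1* then had 0.35 and was called. The ratio of *EIF4EBP1* to *EIF4EBP2* within a library averaged 15.5 ± 1.42 (SD, n = 3) without TEPP-46 and 33.3 ± 8.47 (SD, n = 3) with it. These genes were called in opposite directions, so the separation of this ratio is a description. An exact permutation test of it gave p = 0.1, again the smallest value that 3 against 3 libraries can give. The third gene of the family, *EIF4EBP3*, was listed at 0 in 5 libraries and at 0.0942 in case replicate 3.

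In the cap-binding complex, 1 of the 8 tested genes was upregulated and 1 downregulated, and the median log2 fold change was -0.09 (-0.29 with TPM, -0.21 with quantile normalization). With TPM 0 of these genes were upregulated and 4 downregulated, and with quantile normalization 0 and 2 (1 and 2 higher at an unadjusted p under 0.05). *EIF4G1* (chromosome 3, 184314495 to 184335358), the scaffold that joins the cap-binding protein to eIF3 and to poly(A)-binding protein, fell from FPKM values of 118, 122, and 118 in the control group to 87.4, 87.9, and 71.6 in the case group. Its log2 fold change was -0.47 ± 0.10 (SE, limma, adjusted p = 0.0253). *EIF4A2* encodes a helicase that unwinds the mRNA leader, and its FPKM was 28.7, 26.6, and 26.1 in the control group and 30.3, 39.4, and 40.3 in the case group. This gave a log2 fold change of 0.50 ± 0.11 (SE, limma, adjusted p = 0.0253), and among the case values that of replicate 1 was nearest to the controls. It did not pass with TPM (0.30, adjusted p = 0.113 by limma) or quantile normalization (0.40, adjusted p = 0.0667 by limma). Of its exon bases, 17.9% are shared with other genes on either strand. *EIF4E*, the cap-binding protein itself, had a log2 fold change of -0.26 ± 0.10 (SE), and *EIF4G3*, a paralog of the scaffold gene, had -0.31 ± 0.12 (SE). Case values of both were below all control values, but neither passed the test (adjusted p = 0.125 and 0.107 by limma), although both did with TPM (-0.45 and -0.51, adjusted p = 0.0394 and 0.0437 by limma). *EIF4H*, a cofactor of the helicase, was likewise lower without overlap (-0.14 ± 0.07 SE) and was called with TPM (-0.34, adjusted p = 0.0166 by limma) and with quantile normalization (-0.36, adjusted p = 0.0257 by limma). *EIF4E2*, a cap-binding relative that can repress translation, was higher without overlap (0.19 ± 0.09 SE). *EIF4B*, the other helicase cofactor, had -0.00 ± 0.07 (SE), and *EIF4G2*, a scaffold that lacks the cap-binding part, had -0.04 ± 0.09 (SE).

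The eIF3 complex binds the small subunit and gathers the other factors on it, and its 13 genes did not move together. *EIF3K* and *EIF3M* were upregulated, *EIF3A* and *EIF3E* were downregulated, and 9 did not pass, with a median log2 fold change of 0.12 (-0.08 with TPM, -0.01 with quantile normalization). Both upward calls depended on the scaling, since TPM and quantile normalization each gave 0 upregulated and 2 downregulated eIF3 genes (1 and 2 higher at an unadjusted p under 0.05). *EIF3A* (chromosome 10, 119033670 to 119080817), the largest subunit, had FPKM values of 63.8, 66.6, and 65.8 in the control group and 41.7, 50.7, and 46.5 in the case group, a log2 fold change of -0.43 ± 0.08 (SE, limma, adjusted p = 0.0175). After the correction for transcript length described below this was -0.19 and did not pass (adjusted p = 0.0773 by limma). *EIF3E* had 91.6, 108, and 100 in the control group and 63.7, 75.2, and 80.4 in the case group (-0.38 ± 0.10 SE, adjusted p = 0.0430, limma), and -0.58 with TPM. For *EIF3K*, a small peripheral subunit, the FPKM was 73.6, 73.5, and 72.5 in the control group and 97.2, 81.5, and 99.1 in the case group, which gave 0.41 ± 0.10 (SE, limma, adjusted p = 0.0397), against 0.21 (adjusted p = 0.0803) with TPM and 0.26 (adjusted p = 0.0513) with quantile normalization. *EIF3M* had 15.1, 15.1, and 14.4 in the control group and 16.6, 17.0, and 19.9 in the case group (0.33 ± 0.09 SE, adjusted p = 0.0496, limma), the call nearest to the threshold. With TPM it had 0.14 (limma, adjusted p = 0.307) and with quantile normalization 0.29 (adjusted p = 0.0670). *EIF3K* and *EIF3M* were each called in 9 of the 19 alternative settings. None of these 4 genes had a case value within the range of its control values. *EIF3H* was also higher without overlap but did not pass (0.24 ± 0.08 SE, adjusted p = 0.0914, limma).

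The other eIF3 genes were spread around 0. *EIF3G* (0.20), *EIF3I* (0.15), *EIF3D* (0.14), *EIF3J* (0.12), *EIF3F* (0.05), *EIF3B* (0.04), *EIF3C* (-0.00), and *EIF3L* (-0.06) had overlapping groups. Among the eIF3 genes *EIF3C* varied most between case replicates, with FPKM values of 7.73, 6.89, and 4.45 (standard error of the log2 fold change 0.20). Its near-identical copy *EIF3CL*, with which reads could be exchanged, had 3.47, 3.06, and 4.21 in the same libraries. Of the exon bases of *EIF3L*, 51.8% are shared with other genes.

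Scanning and start codon choice were represented by *EIF1*, *EIF1AX*, *EIF2A*, *EIF5*, and *EIF5B*. *EIF1* (ENSG00000173812, chromosome 17, 41688885 to 41692668), which keeps the scanning ribosome from stopping at the wrong codon, was upregulated. Its FPKM was 211, 221, and 205 in the control group and 281, 281, and 316 in the case group, a log2 fold change of 0.54 ± 0.08 (SE, limma, adjusted p = 0.0128). With TPM it was 0.34 and passed, and with quantile normalization it was 0.27 and did not pass (adjusted p = 0.0617, limma). *EIF5B*, the GTPase that joins the ribosomal subunits, had the lowest value of this role, -0.22 ± 0.13 (SE), with 11.9, 12.5, and 14.2 in the control group and 8.54, 10.6, and 12.4 in the case group, so that case replicate 3 overlapped the control values. *EIF2A*, an alternative carrier of initiator tRNA, was higher without overlap but not called (0.22 ± 0.09 SE, adjusted p = 0.129, limma). For *EIF5*, which makes eIF2 hydrolyse its GTP, the log2 fold change was 0.09, and for *EIF1AX*, the partner of eIF1 on the small subunit, it was 0.03. *EIF1B*, a close paralog of *EIF1* outside the 46 members, was upregulated as well, by 0.42 ± 0.10 (SE, limma, adjusted p = 0.0312), but did not pass with TPM (0.22, adjusted p = 0.162) or quantile normalization (0.35, adjusted p = 0.0516).

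The eIF2B complex reloads eIF2 with GTP and is the point at which the integrated stress response slows initiation. *EIF2B3* (ENSG00000070785, chromosome 1, 44850522 to 44986722), its gamma subunit, had the highest log2 fold change of all members, 0.65 ± 0.11 (SE, limma, adjusted p = 0.0143). Its FPKM was 5.07, 5.05, and 6.07 in the control group and 7.61, 7.86, and 8.78 in the case group, and it was called in 16 of the 19 alternative settings, more than any other member. The remaining subunit genes were not called. *EIF2B2* had 0.28 ± 0.11 (SE), *EIF2B1* 0.11 ± 0.08 (SE), and *EIF2B5* 0.09 ± 0.08 (SE). *EIF2B4* was the lowest at -0.04 ± 0.10 (SE), with FPKM values of 10.6, 10.3, and 10.7 in the control group and 10.5, 9.03, and 9.60 in the case group. Subunits of this complex, which are held in equal number in the protein, ranged from -0.04 to 0.65 in their mRNAs, and the differences between them were not tested.

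Poly(A)-binding and release factors were not called in the scaling used here. *PABPC1*, the main protein on the poly(A) tail, had FPKM values of 154, 153, and 160 in the control group and 139, 146, and 143 in the case group. After scaling, its case values were still below all control values, yet by little, and the log2 fold change was -0.05 ± 0.07 (SE, 95% interval -0.20 to 0.11). It was called lower with TPM (-0.25, adjusted p = 0.0297 by limma) and with quantile normalization (-0.27, adjusted p = 0.0354 by limma), values outside that interval. *PABPC4* had 12.6, 12.9, and 13.4 in the control group and 14.2, 13.6, and 14.4 in the case group, higher without overlap (0.19 ± 0.08 SE, adjusted p = 0.140, limma). The release factor gene *ETF1*, whose protein reads the stop codon, had 50.4, 52.9, and 51.2 in the control group and 51.0, 61.5, and 59.5 in the case group (0.23 ± 0.08 SE, adjusted p = 0.0868, limma). It was called higher in 3 of the 19 alternative settings, namely the length correction, the GC correction, and the fit without case replicate 1. *GSPT1*, its GTPase partner, had 21.1, 23.6, and 23.0 in the control group and 19.6, 23.5, and 22.3 in the case group, with overlapping groups (0.02 ± 0.08 SE). *EIF6*, which keeps free large subunits from joining, had 202, 184, and 203 in the control group and 247, 205, and 201 in the case group. Its log2 fold change was 0.22 ± 0.11 (SE, limma, adjusted p = 0.207), and case replicate 1 stood 0.46 above the control mean against 0.10 for each of the others.

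By level, *EEF1A1* (mean FPKM 1259) and *EEF2* (1162) stood first and were followed by *EEF1B2* (304), *EIF5A* (271), *EIF4EBP1* (269), and *EIF1* (252). In the control group the FPKM of *EEF2* (1192 ± 17.6, SD, n = 3) was above that of *EEF1A1* (1055 ± 35.8, SD, n = 3), and in the case group the order was the reverse (1132 ± 136 and 1464 ± 55.8, SD, n = 3). In reads, however, *EEF1A1* was above *EEF2* in every control library (119555, 114278, and 104764 against 90674, 86230, and 82121). The order of 2 genes by FPKM therefore depends on the gene lengths that the authors divided by. *EIF5A*, *EIF4EBP1*, and *EIF1* did not differ beyond their spread in the case group. The members together held 1.72% to 1.77% of the summed FPKM of a control library and 1.76% to 1.82% of that of a case library.

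Transcript length moved with these results. The upregulated members had a median canonical transcript of 1893 bases, the downregulated members of 6659 bases, and the members that were not called of 2910 bases. Across the 44 members the Spearman correlation of the log2 fold change with length was -0.49, and across 13489 tested genes it was -0.43. Genes are not independent replicates, and all points come from the same 6 libraries. By case replicate, the correlation over all genes was -0.49, -0.18, and -0.42 in replicates 1, 2, and 3. With transcript GC in place of length it was 0.35, -0.21, and -0.08 over all genes, and 0.45, -0.08, and -0.14 over the members. All genes were ranked by length and cut into 5 equal bins. In the bin of the shortest transcripts 11.8% were upregulated and 1.22% downregulated, whereas in that of the longest these were 1.33% and 15.5%. The longest bin held 9 members, of which 0 were upregulated and 4 downregulated (*EIF4EBP2*, *EEF2K*, *EIF4G1*, and *EIF3A*), so that *EIF3E* was the only downregulated member outside it.

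After each library was corrected for transcript length (an alternative added once the data were known), 8 members were upregulated and 1 was downregulated, among 829 and 495 genes. Of the members called without the correction, *EEF1A1* (0.59), *EIF2B3* (0.54), *EIF3M* (0.48), *EIF1* (0.47), *EIF4EBP1* (0.35), *EEF1B2* (0.33), and *EIF3E* (-0.48) were called again. *EIF3K* (0.20), *EIF4A2* (0.39), *EIF3A* (-0.19), *EIF4EBP2* (-0.24), *EIF4G1* (-0.30), and *EEF2K* (-0.22) were not, and *ETF1* (0.28) and *EIF5* (0.28) were called in addition. The opposite signs of *EIF4EBP1* (827 bases) and *EIF4EBP2* (7491 bases) remained, but those values were closer together and only the first was called.

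**Figure D3:**
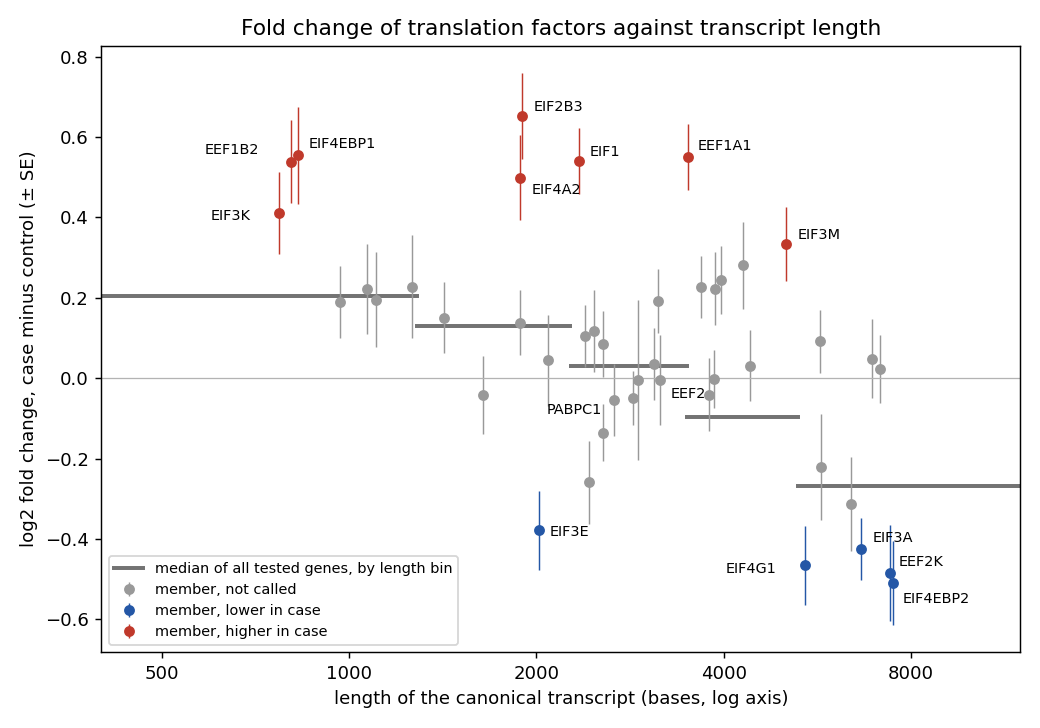
Log2 fold change (case minus control, whiskers are SE) of the 44 tested translation factors against the length of the canonical transcript in bases on a log axis, in red for upregulated, blue for downregulated, and grey for not called. Dark lines give the median of all tested genes in each of 5 equal bins of length, from 0.20 in the shortest to -0.27 in the longest, and 4 of the 5 blue points lie in the longest bin.

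Further lists place these genes beside others of the same pathway. Of 26 other tested factors of cytosolic translation, *PELO*, a ribosome rescue factor (0.45), *EIF1B* (0.42), and *EIF2D*, an alternative initiation factor (0.28), were upregulated, and the helicase gene *DDX3X* was downregulated (-0.58), with a median of 0.02. TPM gave 1 upregulated and 4 downregulated genes of this list and a median of -0.18, and quantile normalization gave 1 and 2. *PELO* and *DDX3X* were called with both, *EIF1B* and *EIF2D* with neither. Among 18 tested genes of mTOR and of regulators of these factors, *SESN2*, whose protein restrains mTOR complex 1 when leucine is low, was upregulated. Its FPKM was 20.7, 20.4, and 19.9 in the control group and 33.9, 31.1, and 31.2 in the case group (0.73 ± 0.08 SE, adjusted p = 0.00603, limma). *MTOR* itself fell by 0.56 on the log2 scale (SE 0.11, adjusted p = 0.0204 by limma) and *RPTOR*, its partner in complex 1, by 0.48 ± 0.11 (SE, limma, adjusted p = 0.0312). The median of this list was -0.16, with TPM -0.35 (1 upregulated and 4 downregulated genes), and after the length correction -0.08, with *SESN2* then the only call. *LARP1*, which binds 5'TOP mRNAs, was lower without overlap but did not pass (-0.27, adjusted p = 0.0724 by limma). Of 8 other 5'TOP mRNAs, *VIM* (0.66) and *TPT1* (0.59) were upregulated, 6 did not pass, and the median was 0.30 (0.10 with TPM, 0.11 with quantile normalization). TPM and quantile normalization each gave 2 upregulated and 1 downregulated gene of these 8. When a control replicate or case replicate 3 was left out, *SESN2* was the only call of limma in these 3 lists.

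**Figure D4:**
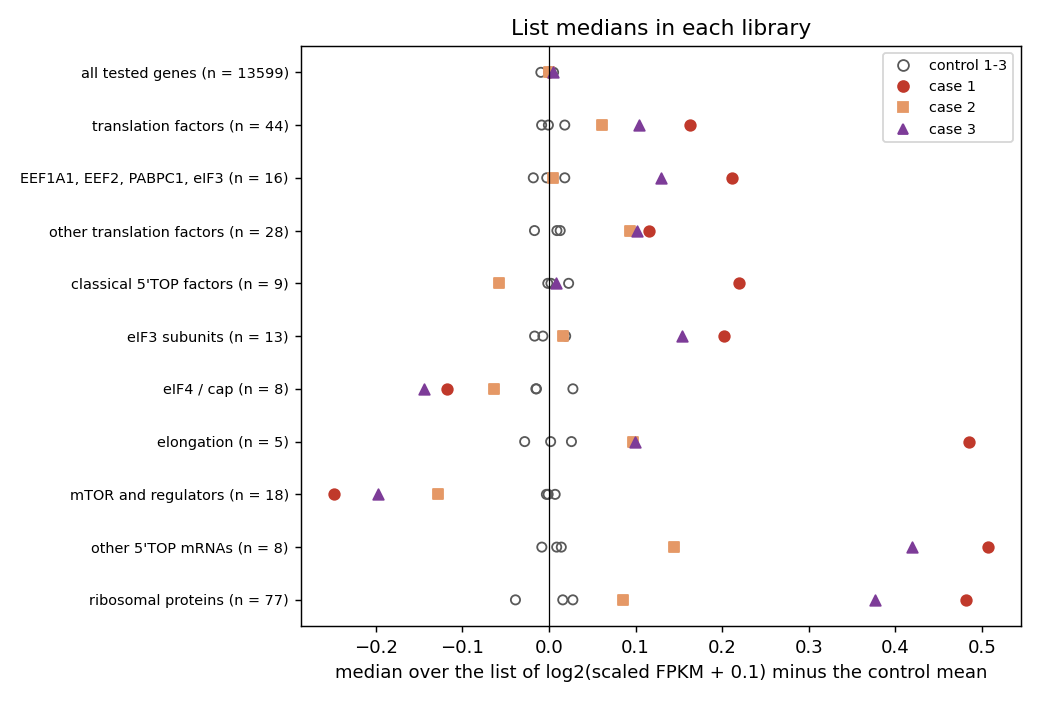
Median over each list of log2(scaled FPKM + 0.1) minus the control mean (x axis) in the 6 libraries, with the number of tested genes beside each list. In the case replicates the translation factors lie at 0.16, 0.06, and 0.10, the group of *EEF1A1*, *EEF2*, *PABPC1*, and eIF3 at 0.21, 0.00, and 0.13, and the ribosomal proteins at 0.48, 0.09, and 0.38, with case replicate 2 the lowest of each.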

How the data were processed

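RNA of 3 control and 3 case replicates of HK-2 cells was sequenced as 150 bp paired-end reads. Per the submitters' processing notes and the methods of the study, the authors filtered the reads, aligned them to GRCh38.p13 with HISAT2 2.1.0, counted them on genes with HTSeq 0.6.0, and deposited FPKM values. The selection of RNA, the strandedness, and the version of the annotation were not given in the sources used here. The contrast and threshold are those of the study, but because the values are FPKM they were tested on a log scale in place of the count test of the study.

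Each library was scaled by a median-of-ratios factor (0.944 to 1.04), and log2(scaled FPKM + 0.1) of the 13599 genes whose FPKM averaged 0.5 or more was fitted with limma 3.58.1 in R 4.3.3 (intensity trend, no covariates). P-values were adjusted over all tested genes by the Benjamini-Hochberg method with a threshold of 0.05, and fold changes are on the scale of log2(scaled FPKM + 0.1), which understates those of low genes. FPKM values in the text are unscaled. Whole reads were recovered from the steps of the FPKM values for 93.7% of the 27922 genes above 0 (within 0.01 reads) and otherwise with the gene length. By voom on these reads 2814 genes were called. The reads carry no molecular identifiers and are not independent molecules. Symbols and transcript lengths came from a GENCODE annotation of GRCh38, with a symbol for 29063 genes. The procedure was also run on simulated data, with equal spread in both groups and no trend with transcript length. These data differ in both respects, so that run does not measure the error of the calls here.

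The members and gene lists were chosen with earlier results of these data known, so that counts over a list describe it and carry no p. All 46 members are named. Values in every library are given for the called members, for *EEF1A1*, *EEF2*, *PABPC1*, *EIF4EBP1*, and *EIF4EBP2*, and for the highest and lowest member of each role; up to 6 called genes by absolute log2 fold change are named from each other list, with 3 of the ribosomal proteins in the closing section, where 1 item is not reported here. Other genes were named after their values were seen. Alternatives were pseudocounts of 1 and 0.01, no filter and a mean FPKM of at least 1, FPKM unscaled, TPM, quantile normalization, limma without the trend or with robust estimation, a replicate block, voom, each library left out, and, added after seeing the data, corrections for transcript length and GC.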

Additional observations from a re-analysis of the deposited data

How the results depend on the processing

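The 13 called members kept their sign under every alternative, although several alternatives could hardly change it. The same 8 and 5 members were called with voom, robust estimation, both other pseudocounts, and a mean FPKM of at least 1. With no filter on low values 524 genes were called, with 2 members upregulated and 1 downregulated, and without the intensity trend 852, with 4 and 1. Calls in all genes numbered 2770 with TPM (5 and 9 members), 2814 with voom, and 3349 with the GC correction (10 and 6 members). Quantile normalization gave 4 upregulated and 7 downregulated members, among 873 and 895 genes. The length correction gave 1 downregulated member and a median over the members of 0.0373. That median was 0.0123 with unscaled FPKM, -0.0157 with quantile normalization, and -0.1099 with TPM, against 0.09. With a library left out, 69 to 3495 genes were called, with 0 to 11 members upregulated and 0 to 6 downregulated, and the median of the group of *EEF1A1*, *EEF2*, *PABPC1*, and eIF3 minus that of the other members lay between -0.074 and 0.0294. The fits with 5 libraries have fewer samples, and the cause of the other shifts was not tested.

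The replicate numbers were checked for pairing, and deviations of same-numbered samples correlated by 0.06, 0.10, and -0.05, so that the samples share only a number. The fit with the replicate block called 1610 genes, with 7 members upregulated and 4 downregulated, without *EIF3M* and *EEF2K*. Not every sample correlated best with its own number.

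Changes of sign occurred only in members that were not called, in 22 of 31. With TPM the log2 fold changes that crossed 0 were -0.1678 (*EIF1AX*), -0.0926 (*EIF2B1*), -0.1122 (*EIF2B5*), -0.1636 (*EIF3B*), -0.0618 (*EIF3D*), -0.15 (*EIF3F*), -0.004 (*EIF3G*), -0.0488 (*EIF3I*), -0.0808 (*EIF3J*), -0.0076 (*EIF4E2*), -0.1076 (*EIF5*), -0.153 (*EEF1D*), -0.0066 (*PABPC4*), and -0.176 (*GSPT1*). With quantile normalization the log2 fold changes that crossed 0 were -0.0287 (*EIF1AX*), -0.1339 (*EIF3B*), 0.0164 (*EIF3C*), -0.0016 (*EIF3D*), -0.0072 (*EIF3F*), -0.0766 (*EIF3I*), -0.0059 (*EIF3J*), -0.0242 (*EIF5*), -0.0377 (*EIF5A*), -0.028 (*EIF6*), and -0.0353 (*GSPT1*). With unscaled FPKM the log2 fold changes that crossed 0 were -0.0456 (*EIF1AX*), -0.0409 (*EIF3B*), -0.0278 (*EIF3F*), -0.0316 (*EEF1D*), and -0.0537 (*GSPT1*). With the length correction the log2 fold changes that crossed 0 were -0.0049 (*EIF3I*), 0.0615 (*EIF4B*), -0.0062 (*EIF4E2*), 0.0174 (*EIF4G2*), -0.0486 (*EEF1D*), and 0.0008 (*EEF2*). With the GC correction the log2 fold change that crossed 0 was 0.0053 (*EEF2*). With no filter on low values the log2 fold changes that crossed 0 were 0.0113 (*EIF3C*), 0.0134 (*EIF4B*), and 0.0104 (*EEF2*). With a pseudocount of 1 the log2 fold change that crossed 0 was 0.0011 (*EIF3C*). With a library left out the ranges that included 0 were -0.07 to 0.1144 (*EEF1D*), -0.118 to 0.0826 (*EEF2*), -0.0195 to 0.1027 (*EIF1AX*), -0.12 to 0.0317 (*EIF2B4*), -0.0387 to 0.1062 (*EIF3B*), -0.1843 to 0.2364 (*EIF3C*), -0.0147 to 0.144 (*EIF3F*), -0.1135 to 0.0234 (*EIF3L*), -0.0443 to 0.0267 (*EIF4B*), -0.123 to 0.0197 (*EIF4G2*), and -0.0229 to 0.0757 (*GSPT1*).

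Depth limited *EEF2K* most among the tested members, with 260 reads in its lowest library, and *EIF4A1* with 13.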

Other observations

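Mitochondria translate their own mRNAs with a separate set of factors, and 11 of these were tested. *MTRFR*, a ribosome rescue factor, was upregulated (log2 fold change 0.32 ± 0.08 SE, adjusted p = 0.0470, limma), with FPKM values of 5.15, 4.89, and 4.84 in the control group and 5.48, 6.19, and 5.97 in the case group. *TSFM*, the exchange factor of the mitochondrial elongation factor Tu, had at most 7.02 in the control group and 8.49, 7.69, and 11.1 in the case group (0.51, adjusted p = 0.0562 by limma), and *TUFM*, the factor it serves, had a log2 fold change of 0.12. *MTRFR* was not called when a control replicate or case replicate 3 was left out, nor with TPM (0.12), unscaled FPKM (0.24), or the length correction (0.17). The other genes of the list did not pass, and its median was 0.10 (-0.09 with TPM). Of the 24 upregulated ribosomal protein genes, the 3 with the largest log2 fold changes were *RPS18* (0.71), *RPL11* (0.70), and *RPLP1* (0.67).

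*CD14*, a receptor for bacterial lipopolysaccharide, stood in the leukocyte marker list. Its FPKM was 0.882, 0.621, and 0.915 in the control group and 0.286, 0.231, and 0.276 in the case group. It was downregulated by limma (log2 fold change -1.24), though not without control replicate 2 or case replicate 3. *CD14* met the mean FPKM filter of 0.5 through its control values, since every case value was below that level. The other leukocyte marker in the table, *CD68*, was at most 0.0297.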
